A study of Mus musculus with 6 samples.

Results

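Amino acid transporters were examined in the list of H3K27ac peaks of control mouse embryonic stem cells (mESCs). The members were the protein-coding genes of GENCODE on GRCm38 whose symbols place them in the solute carrier families Slc1, Slc3, Slc6, Slc7, Slc36, Slc38 or Slc43, with Slc38a4 left out by the rule. They numbered 60 of 21853 protein-coding genes. Genes with a letter after the number do not match the rule and were not counted.

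H3K27ac, the acetylation of histone H3 at lysine 27, was measured by ChIP-seq in E14 mESCs (E14Tg2A with Rosa26-Cre and Oct4-IRES-Puro), grown in N2B27 medium with LIF, PD0325901 and CT-99021, which holds them in the naive state. The 3 groups of 2 samples were control cells given DMSO, cells given 100 nM NVP-2, an inhibitor of the elongation kinase CDK9, and cells given 800 nM actinomycin D (ActD), which blocks RNA polymerases, both for 120 min. All samples came from the same line and carried human HEK293T chromatin as a spike-in. The file analysed here is 1 list of 22973 control peaks pooled over both control samples, with positions only, so there is no replicate error, no depth and no height, and the treated samples were not analysed here.

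Cells take up amino acids through carriers in the plasma membrane and release them from lysosomes through others. Slc3 proteins are heavy chains that bring Slc7 light chains to the membrane, Slc1 carriers move glutamate or small neutral amino acids, and Slc38 and Slc36 carriers move neutral amino acids with sodium or protons. Slc6 carriers include those that clear neurotransmitters from synapses as well as carriers of taurine and creatine, and Slc43a1 and Slc43a2 carry large neutral amino acids. When amino acids run short, the transcription factor ATF4 switches on many of these genes through the C/EBP-ATF response element, and when they are plentiful, mTORC1 is turned on at the lysosome.

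The labelled cell type was checked against marker genes. A promoter, TSS ±1 kb, was called marked where a control peak overlapped it by at least 1 bp. Of 10 mESC markers, 8 were marked (Pou5f1, Nanog, Sox2, Zfp42, Tfcp2l1, Dppa5a, Fgf4 and Lin28a) and Klf4 and Esrrb were not, beside 48.8% of all protein-coding genes. Esrrb was unmarked at the start of its longest isoform and marked when the starts of all isoforms were used. Of 10 markers of other cell types, 2 were marked, Gata4 with a peak of 1233 bp and Gata6 with a peak of 2607 bp. The peaks at the marked mESC markers spanned 19693 bp (Sox2) to 71785 bp (Tfcp2l1), except for 2572 bp at Lin28a.

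Promoter sequences of 3 members are shown because their letters match the core of the response element through which ATF4 acts on genes of amino acid supply, and the match in Slc6a2 is given by position only. Each runs 5′ to 3′ in the direction of transcription, from 250 bases before the GENCODE TSS to 50 bases from it on, on build GRCm38.p6. Capitals mark matches to TGATGNAA, the core of the C/EBP-ATF element, which reads TTNCATCA when it lies on the other strand. The first pair are the only marked members with a match in this window, Slc1a4 (chr11:20332664-20332963, minus strand) and Slc7a7 (chr14:54417650-54417949, minus strand). Slc7a11 (chr3:50443565-50443864, minus strand) was unmarked and was added after its values were seen.
Slc1a4: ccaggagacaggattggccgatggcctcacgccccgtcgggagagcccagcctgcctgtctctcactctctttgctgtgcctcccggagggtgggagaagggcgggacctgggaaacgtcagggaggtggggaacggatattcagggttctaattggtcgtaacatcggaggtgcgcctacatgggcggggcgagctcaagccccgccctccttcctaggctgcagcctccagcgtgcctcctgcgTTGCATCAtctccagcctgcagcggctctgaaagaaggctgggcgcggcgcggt
Slc7a7: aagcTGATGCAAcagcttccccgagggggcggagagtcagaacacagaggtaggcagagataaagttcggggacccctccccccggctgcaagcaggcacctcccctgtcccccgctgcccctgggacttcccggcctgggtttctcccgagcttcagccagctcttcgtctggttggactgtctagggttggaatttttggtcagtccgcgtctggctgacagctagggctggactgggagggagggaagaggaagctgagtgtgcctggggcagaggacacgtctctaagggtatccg
Slc7a11: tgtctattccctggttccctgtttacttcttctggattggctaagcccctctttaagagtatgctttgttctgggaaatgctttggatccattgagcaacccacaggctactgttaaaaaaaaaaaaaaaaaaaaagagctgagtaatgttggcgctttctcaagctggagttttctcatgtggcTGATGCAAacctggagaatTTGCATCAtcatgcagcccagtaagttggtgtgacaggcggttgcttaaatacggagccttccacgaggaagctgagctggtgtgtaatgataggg

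H3K27ac marked the promoters of 28 of the 60 transporters, 46.7% (95% Wilson interval 34.6 to 59.1%, counting error only). Over all protein-coding genes 48.8% were marked, and over 275 genes of the other Slc families 48%, so the share of the transporters lay near the background. The marked members were Slc1a1, Slc1a3, Slc1a4, Slc1a5, Slc3a2, Slc6a6, Slc6a7, Slc6a8, Slc6a9, Slc6a15, Slc6a16, Slc7a1, Slc7a3, Slc7a5, Slc7a6, Slc7a7, Slc7a9, Slc36a1, Slc38a1, Slc38a2, Slc38a6, Slc38a7, Slc38a8, Slc38a9, Slc38a10, Slc43a1, Slc43a2 and Slc43a3. The other 32 members were unmarked. The TSS itself lay inside a peak in 23 members, or 38.3%, against 44.2% of all protein-coding genes.

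By family, 7 of 10 Slc38 genes were marked (70.0%, Wilson interval 39.7 to 89.2%), 4 of 7 Slc1 genes (57.1%, 25 to 84.2%) and 6 of 15 Slc7 genes (40.0%, 19.8 to 64.3%). In Slc6, the largest family, 6 of 19 were marked (31.6%, 15.4 to 54.0%). The small families were marked in 1 of 2 (Slc3), 1 of 4 (Slc36) and 3 of 3 (Slc43). All 7 intervals overlapped one another, so no order of the families can be read from these counts.

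**Figure D1:**
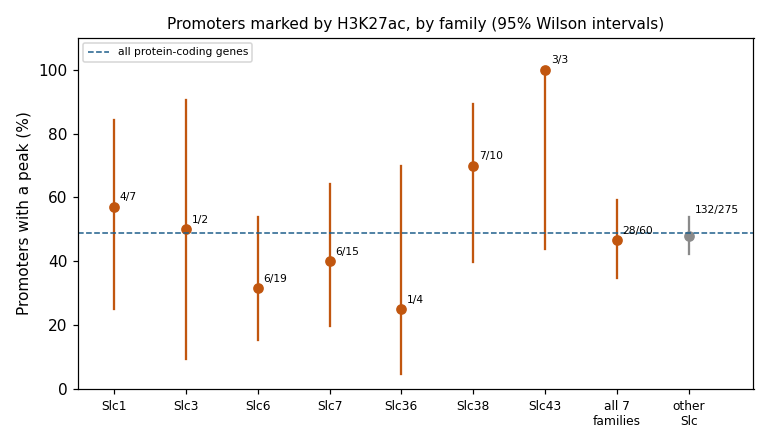
Share of promoters with a control H3K27ac peak within 1 kb of the TSS, in percent, for each transporter family, for all 60 members and for 275 other Slc genes, with 95% Wilson intervals as vertical lines and the counts beside the points. The dashed line is the share over all protein-coding genes, 48.8%, which the intervals of all 7 families include.

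The heavy chains differed from each other. Slc3a2 (ENSMUSG00000010095.13), the heavy chain of the leucine and cystine exchangers, is transcribed from the minus strand (chromosome 19, 8706882 to 8723369). Its peak of 14010 bp, from 8711483 to 8725492, covered 72.1% of the gene. Slc3a1, the heavy chain of the kidney cystine carrier, was unmarked and had its nearest peak 61.1 kb downstream of the TSS, at the promoters of Prepl and Camkmt. The mark thus lay at the gene of 1 of these 2 proteins, a share near the 48.8% of all protein-coding genes.

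Among the light chains, Slc7a5, which brings in leucine and other large neutral amino acids, had a promoter peak and 3 further peaks, as did Slc7a1, the most of any member. Its promoter peak spanned 8633 bp, from 121901615 to 121910247 on chromosome 8, and the further peaks measured 5828 bp in intron 1, 4197 bp in intron 3 and 4226 bp across its 3′ end. Within 50 kb of its TSS there were 7 peaks, as many as around Slc7a7 and above the median of 2 over all protein-coding genes. Slc7a7, a light chain for cationic and neutral amino acids, had a promoter peak of 8767 bp, nearly all of it downstream of the TSS (8.14 kb against 0.627 kb upstream), and a peak of 2136 bp in intron 4.

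Slc7a6, a close relative of Slc7a7 with the same substrates, had a promoter peak of 1942 bp and no peak elsewhere in the gene. Slc7a9, the light chain that pairs with Slc3a1 in the kidney, had a promoter peak of 1595 bp although its heavy chain gene was unmarked. The other light chains in the list, Slc7a8, Slc7a10, Slc7a11 and Slc7a13, were unmarked. Of these, Slc7a8 had a peak of 3957 bp in intron 3 and another peak 10.1 kb upstream of its TSS, whereas the nearest peaks lay 46.2 kb from Slc7a10 and 51.6 kb from Slc7a13. Counted with both heavy chains, 5 of 10 genes of this group were marked, beside 48.8% of all protein-coding genes.

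Slc7a11 encodes the light chain of the cystine and glutamate exchanger, which supplies cysteine for glutathione. Its TSS, at 50443614 on chromosome 3, lay 683 kb from the nearest peak, the greatest distance of any unmarked member. The stretch without a peak ran from 49069697 to 51126486 and measured 2057 kb, and 0.549% of the 22952 gaps between neighbouring peaks were as long. GENCODE gives this gene a length of 551 kb because 1 of the 2 isoforms considered runs far downstream, and neither the starts of these isoforms nor the RefSeq transcript start had a peak within 1 kb. Whether signal there was absent, failed a threshold of the authors or belongs to peaks not analysed here cannot be read from the list.

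Of the 4 carriers of cationic amino acids, 2 were marked, beside the same 48.8%. Slc7a1, the main arginine and lysine carrier of many cells, had a promoter peak of 5536 bp and 3 further peaks in its introns, of 640 and 4659 bp in intron 1 and 689 bp in intron 2. Slc7a3, a related arginine carrier on the X chromosome, is 6.81 kb long, and its promoter peak of 7174 bp covered 54.0% of the gene. Slc7a2 and Slc7a4 were unmarked, with the nearest peaks 63.8 and 23.8 kb away. On the X chromosome 2 of 4 members were marked, Slc7a3 and Slc6a8, where 30.5% of protein-coding promoters were.

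Both neutral exchangers of Slc1 were marked (Wilson interval 34.2 to 100%), beside 48.8% of all protein-coding genes. Slc1a5, a glutamine carrier, had a peak of 7753 bp from 16779213 to 16786965 on chromosome 7 and 6 peaks within 50 kb. Slc1a4, which exchanges alanine, serine and cysteine, had a peak of 1801 bp, the window printed above lying within it. Of the 5 glutamate carriers of this family 2 were marked (40%, 11.8 to 76.9%), beside the same 48.8%. Slc1a1 had a peak of 6676 bp and Slc1a3 one of 710 bp at the promoter with another of 1129 bp in intron 2. Slc1a2, Slc1a6 and Slc1a7, which are known from astrocytes, Purkinje cells and retina, were unmarked, with the nearest peaks at 207, 32.2 and 44.7 kb.

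In Slc6, the widest promoter peaks of all members were found beside many genes without any. Slc6a8, the creatine carrier on the X chromosome, lay wholly inside a peak of 57173 bp that also covered the promoter of Bcap31. Slc6a6, the taurine carrier on chromosome 6, had a peak of 39541 bp from 91682485 to 91722025, which reached 37972 bp into the gene and 1568 bp upstream and held no other promoter. The third widest peak of a member was that of Slc3a2, 14010 bp.

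Of the carriers of GABA and glycine, 1 of 6 was marked (Wilson interval 3.01 to 56.4%), where 48.8% of all protein-coding genes were. Slc6a9, a glycine carrier, had a peak of 1654 bp that began 708 bp downstream of the TSS, so that it was called marked by the ±1 kb window but not by a window of ±500 bp. With windows of ±500 bp and ±2 kb the count of this group was 0 and 2 of 6. Slc6a12, a carrier of GABA and betaine, had a peak of 7837 bp across its 3′ end, 20.1 kb from the TSS, and Slc6a5, Slc6a11 and Slc6a13 had none in the gene, with the nearest at 130, 133 and 62.9 kb.

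None of the 3 monoamine carriers was marked, a count that allows a share of up to 56.1% by the Wilson interval and so includes the 48.8% of all protein-coding genes. The serotonin carrier Slc6a4 had its nearest peak at 52.0 kb and the norepinephrine carrier Slc6a2 at 187 kb. The dopamine carrier Slc6a3 had a peak of 1791 bp in intron 4, whose near edge lay 8.99 kb from the TSS. Of the remaining Slc6 genes, Slc6a7, a proline carrier, Slc6a15 and Slc6a16 were marked with peaks of 7070, 2223 and 3985 bp, and Slc6a14, Slc6a17, Slc6a18, Slc6a19 and Slc6a21 were not. The peak of Slc6a16 also covered the promoter of Cd37, which starts within 2 kb of it.

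Among the Slc38 genes, the sodium-coupled glutamine and alanine carriers Slc38a1 and Slc38a2 lie 56.8 kb apart on chromosome 15 and each had a peak of its own. That of Slc38a1 spanned 9226 bp and reached 8.87 kb into the gene, whereas that of Slc38a2 spanned 5263 bp and reached 3.85 kb upstream and 1.42 kb into the gene. The peaks of these neighbours thus extended further on opposite sides of their TSS. Slc38a7, a lysosomal glutamine carrier, had a promoter peak of 5751 bp, and its 3′ end touched a peak of 50676 bp that held 4 other promoters, those of Cnot1, Gm31659, Sap18b and Gm31805.

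Slc38a9, the lysosomal arginine sensor of mTORC1, had a peak of 578 bp that began 15 bp downstream of the TSS. Slc38a6 had a peak of 2388 bp shared with the promoter of Trmt5, and Slc38a10 one of 1783 bp. Slc38a8 had a peak of 1013 bp that ended 299 bp upstream of the TSS and a second one of 4400 bp in intron 6. Slc38a3, Slc38a5 and Slc38a11 were unmarked. A peak of 34023 bp at the promoter of Ftsj1 ended 7.28 kb upstream of Slc38a5, and a peak of 2828 bp lay 6.26 kb upstream of Slc38a3, while that nearest to Slc38a11 was 47.6 kb away.

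The 3 Slc43 genes had peaks of 3079 bp (Slc43a1), 1938 bp (Slc43a2) and 500 bp (Slc43a3). The last began 108 bp downstream of its TSS. In Slc36, the proton-coupled carriers, Slc36a1, which works on lysosomes, had the narrowest promoter peak of all members, 467 bp, beginning 21 bp downstream of the TSS. Its neighbours on chromosome 11, Slc36a2 and Slc36a3, were unmarked, and a peak of 543 bp lay in exon 8 of Slc36a3. Slc36a4 was unmarked and had its nearest peak at 164 kb.

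The median width of the promoter peaks was 3532 bp over the 28 marked transporters (order-statistic interval 1801 to 7070 bp), from 467 to 57173 bp. The median over all 10674 marked protein-coding promoters was 2174 bp, with quartiles at 1558 and 4833 bp, and over the marked genes of other Slc families it was 2584 bp. With promoter peaks under 1 kb left out, the medians were 5400 bp over 24 transporters and 2504 bp over 9541 protein-coding promoters. Peaks of at least 5 kb were found at 13 of the 28 (46.4%), against 24% of all marked protein-coding promoters, and peaks under 1 kb at 4 (14.3%), against 10.6%. The 13 wide peaks were those of Slc6a8, Slc6a6, Slc3a2, Slc38a1, Slc7a7, Slc7a5, Slc1a5, Slc7a3, Slc6a7, Slc1a1, Slc38a7, Slc7a1 and Slc38a2. Of these, Slc6a8 and Slc7a3 lie on the X chromosome. Peaks at all marked protein-coding promoters there had a median width of 5633 bp, and 51.6% were at least 5 kb. The 4 narrow ones were those of Slc1a3, Slc38a9, Slc43a3 and Slc36a1, and the last 3 of these lay wholly downstream of the TSS. No test was made of the widths, and peaks within 2 kb of each other were merged by the authors, so that a wide peak can hold several.

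**Figure D2:**
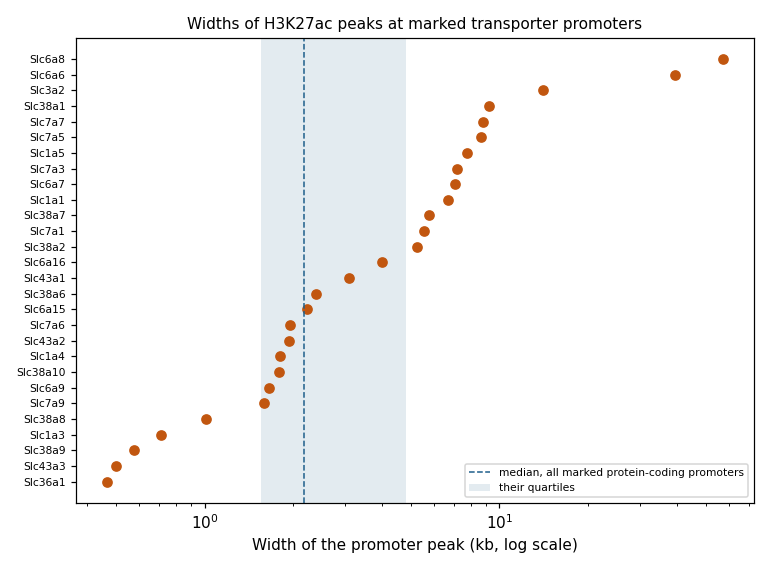
Width of the promoter peak in kb, on a log scale, for each of the 28 marked transporters, in order. The dashed line is the median over all marked protein-coding promoters (2174 bp) and the shaded band their quartiles; 13 transporters lie above 5 kb.

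The peak reached further into the gene than upstream at 21 of the 28 marked promoters (75%), where 67.6% of all marked protein-coding promoters did so. The median reach was 1.81 kb downstream and 0.966 kb upstream for the transporters and 1.17 and 0.841 kb for all. No promoter of another protein-coding or lincRNA gene lay in 25 of the 28 peaks (89.3%), against 70.7% of the peaks at all marked protein-coding promoters and 68.9% at the marked genes of other Slc families. The exceptions were Slc6a8, Slc6a16 and Slc38a6.

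Apart from any peak that overlapped the promoter window, 15 of the 60 genes (25%, Wilson interval 15.8 to 37.2%) had a peak in the gene body, against 21.9% of all protein-coding genes. Promoter peaks that ran on into the gene, such as that of Slc6a6, were not counted here. Of these 15, 9 were marked at the promoter and 6 were not, among them Slc6a3, Slc6a12, Slc7a8, Slc7a15 and Slc36a3. The peak in Slc7a15 spanned 3685 bp in intron 2, with its midpoint 52.95 kb from the TSS. There were 19 such peaks in all, the widest of 50676 bp, and 13 had their midpoint in an intron, 1 in an exon and 5 beyond the end of the gene. The transporters had a median length of 33.7 kb against 17.4 kb over all protein-coding genes, and the part of length in this share was not tested.

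Neither a promoter peak nor one in the gene body was found for 26 of the 60 (43.3%), where 43.8% of all protein-coding genes had neither. Among the 32 unmarked members the nearest peak lay up to 683 kb from the TSS, with a median of 49.6 kb, against 60.3 kb over all unmarked protein-coding genes. It was more than 50 kb away in 16 of them (50%), against 54.1%. Among those nearer than 10 kb were the peaks of Slc6a21 (3.77 kb), Slc38a3, Slc38a5 and Slc6a3. The longest stretches without a peak surrounded Slc6a14 (2254 kb), Slc6a5 (2081 kb) and Slc7a11. Slc7a12 (52.7 kb), Slc7a14 (212 kb) and Slc7a15 (39.4 kb) completed the unmarked Slc7 genes.

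Some members lie side by side, in 9 groups of 20 genes with neighbours within 500 kb. In Slc38a1 with Slc38a2 and in Slc43a1 with Slc43a3 both were marked. In 4 groups 1 gene was marked and the rest were not: Slc36a1 beside Slc36a2 and Slc36a3, Slc7a7 beside Slc7a8, Slc7a9 beside Slc7a10 and Slc6a16 beside Slc6a21. The groups of Slc6a3, Slc6a18 and Slc6a19 and of Slc6a12 and Slc6a13 had no marked promoter. The last pair shared a single stretch of 168 kb without a peak around both TSSs.

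Promoter base composition was measured in the same window as that of the sequences printed above, 300 bases in all. Marked transporters had a median GC content of 62.8% (43.7 to 75.7%) and unmarked ones 56.5% (33.3 to 75.7%), whereas over all protein-coding genes the medians were 61% and 49.7%. The ratio of observed to expected CpG had a median of 0.66 in marked and 0.40 in unmarked transporters, and of 0.78 and 0.25 over all genes. It was at least 0.6 in 19 of the 28 marked members, against 76% of all marked promoters, and in 11 of the 32 unmarked ones, against 18.5% of all unmarked promoters.

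Marked and unmarked members overlapped over most of this range. Slc7a5 had the highest ratio, 1.20, and the marked Slc38a8 one of 0.21. Slc36a4 (0.91), Slc6a21 (0.90), Slc7a2 (0.89) and Slc6a17 (0.86) were unmarked with CpG-rich windows. Slc7a12 and Slc7a13 had no CpG in the window. Slc7a11 had 4 in 300 bases, a ratio of 0.28, against 21 and 0.67 for Slc1a4 and 12 and 0.42 for Slc7a7.

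**Figure D3:**
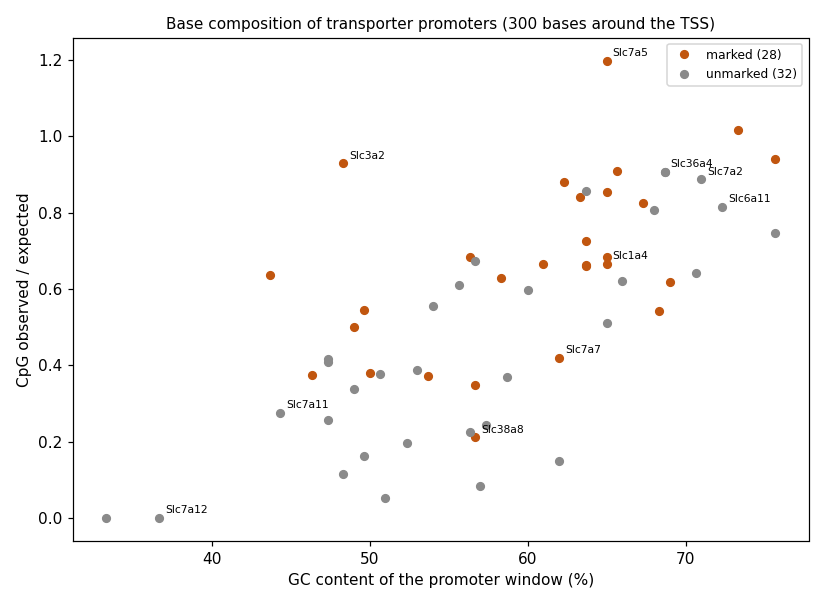
GC content in percent (horizontal) and the ratio of observed to expected CpG (vertical) in the window from 250 bases before to 50 bases after the TSS of the 60 transporters, with marked members in orange and unmarked members in grey. Both kinds are found from low to high ratios, and the highest ratio is that of Slc7a5, 1.20.

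The core TGATGNAA was searched on both strands of this window. It was found in 4 of the 60 members, where 3.75% of all protein-coding promoters held it. With the TSS as position 0, Slc1a4 had a match at position -4 on the other strand, and Slc7a7 one at position -246. Slc7a11 had matches on opposite strands at positions -65 and -46, both reading TGATGCAA, and Slc6a2 had one (TGATGGAA) at position -17. The core was held by 2 of the 28 marked transporters, against 1.87% of all marked protein-coding promoters, and by 2 of the 32 unmarked ones, against 5.54% of all unmarked promoters. In the wider window of ±1 kb 22.3% of all protein-coding promoters held it. There it was found in 11 of the 28 marked members, against 17.2% of all marked promoters, and in 7 of the 32 unmarked ones, against 27.1% of all unmarked promoters. A match is a string of letters and was not tested as a binding site.

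Of 9 members known as ATF4 targets, 8 were marked (88.9%, Wilson interval 56.5 to 98.0%), beside the 48.8% of all protein-coding genes: Slc1a4, Slc1a5, Slc3a2, Slc6a9, Slc7a1, Slc7a3, Slc7a5 and Slc38a2. The median of their peak widths was 6355 bp, and 6 of the 8 were at least 5 kb wide, beside a median of 2174 bp and a share of 24% over all marked protein-coding promoters. Slc7a11 was the only unmarked one. The list was chosen with earlier results of these data known, so its count is a description.

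Other genes of the ATF4 and mTORC1 pathways were counted beside the transporters, where 48.8% of all protein-coding genes were marked. Of 13 genes of the ATF4 arm 12 were marked, with a median peak width of 3700 bp. Among them were peaks of 28149 bp at Asns (asparagine synthetase), 14791 bp at Sesn2, a leucine sensor, 11733 bp at Trib3 and 2087 bp at Chac1, all 4 at ATF4 targets. The 4 kinases that lead to ATF4, of which Eif2ak4 is the one known to respond to amino acid shortage, were marked (Eif2ak1, Eif2ak2, Eif2ak3 and Eif2ak4) with peaks of 1229, 5011, 2388 and 1591 bp. Atf4 itself was unmarked, with the nearest peak 17.9 kb from its TSS, and the same limit on an unlisted promoter holds as for Slc7a11. Of 28 genes through which mTORC1 senses amino acids, all 28 were marked, with a median width of 1791 bp, from 520 bp at Wdr24 to 70157 bp at Lamtor2.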

How the data were processed

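H3K27ac ChIP-seq of mESCs was used, 2 samples in each of 3 groups, of which only the pooled control list was analysed here. The deposited values are other than a measured signal: each line holds a chromosome, start and end in mm10, with no score. The authors made the list from adapter-trimmed reads aligned with bwa meme against a joint mouse and human reference. Duplicates were removed by Picard (2.9.1 in the submitters' processing notes) and low mapping quality by SAMtools (1.4). LanceOtron peaks within 2 kb were joined and filtered by height and distance to ATAC-seq summits, so an unlisted promoter may have failed any of these steps.

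Peaks were compared with GENCODE M21 on GRCm38, another release than that of the study, and sequences were read from RefSeq GRCm38.p6. Each gene was represented by the isoform spanning most of the genome, and promoters were ±1 kb. Some values and sequences, 1 member's among them, are not reported here beyond the counts. Ddit3, annotated under 2 identifiers, was counted once. The members and all lists were chosen with earlier results of these data known, so lists are described by counts, the main ones beside the share over all protein-coding genes, and no test was made. Named with values by rule were the 8 widest and 4 narrowest promoter peaks, the heavy chain, cationic and ATF4 target genes, unmarked members with a peak in the gene or within 10 kb, and those whose status depends on the window; the remaining members were described after their values were seen. Overlap functions were tested on simulated data. Alternatives were other windows, isoforms, overlaps and widths, unshared promoters, 1 member per cluster and, added later, RefSeq starts. The tools were Python 3.11.15, pandas 2.3.3, numpy 2.4.6, pysam 0.24.0, scipy 1.17.1 and matplotlib 3.10.9.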

Additional observations from a re-analysis of the deposited data

How the results depend on the processing

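The share of marked transporter promoters, 46.7%, stayed inside its interval under all 10 alternatives, from 38.3% (TSS inside a peak) to 49.0% (1 member per cluster of neighbours within 500 kb). RefSeq transcript starts, added after the data were seen and known for 42 of the 60 members, gave 45.2%. The gene body share of 25% stayed between 18.3 and 23.3%, and the median width of 3532 bp between 3079 bp (windows of ±2 kb) and 5400 bp (peaks at least 1 kb wide), inside their intervals. Of 462 calls of single members under 8 alternatives, 13 changed, 12 of them from marked to unmarked. Slc6a9 became unmarked with windows of ±500 bp, with the TSS inside a peak and with an overlap of at least 500 bp. Slc36a1, Slc38a8, Slc38a9 and Slc43a3 became unmarked with the TSS inside a peak, Slc1a3, Slc36a1, Slc38a9 and Slc43a3 with peaks at least 1 kb wide, and Slc36a1 with an overlap of at least 500 bp. Marked under every alternative that could be run for them were 22 members. Of 149 values of families and roles, 8 left their interval, in Slc36, the cationic carriers and the carriers of GABA and glycine. No paired analysis was possible because both control samples were merged into 1 list, which also kept single replicates from being omitted. A stricter score could not be tried because the list gives none.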
